A study of Mus musculus with 8 samples.

Results

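Cd55 and 6 further genes of the complement system were followed in a mouse epicardial cell line: the membrane regulators Cd55, Cr1l and Cd59a, the soluble inhibitor Serping1, and the components C3, C4b and Cfb. These 7 genes were taken by symbol from the 35275 genes of the deposited tables. They were chosen with the KO against EV difference already known (Cd55 is among the genes that fell furthest), so their differences between the groups are given as a description, without p-values. The KO group was 4 libraries of epicardial cells titled as Hdac3 CRISPR/Cas9 knockout, made by lentiviral delivery of a guide RNA, and the EV group was 4 libraries of the same cell line given the empty lentivirus. All libraries came from total RNA of cells cultured in high-glucose medium with fetal bovine serum. The labels do not say whether the knockout cells are a clone or a mixed population, and they do not name separate cultures behind the replicates, so the spread given here is that between libraries and may be technical. The characteristics field of KO replicate 1 names the empty vector whereas its title names the knockout. Libraries were grouped by title, and the results were also computed without that library.

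Complement is a cascade of plasma and tissue proteins that tags surfaces with fragments of C3 and C4 and can end in a pore, the membrane attack complex. C1q, lectins such as the collectins, and spontaneous turnover of C3 start its classical, lectin and alternative arms. Host cells hold it in check with surface proteins that break up the C3-cleaving enzymes (CD55, also called decay-accelerating factor, and in rodents the Cr1l product Crry) or block the pore (CD59), and with soluble inhibitors such as C1 inhibitor. Liver makes most of the circulating components, and many other cells make some of them locally.

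The deposited counts summed to between 18063745 and 24564892 per library, and 3 counts corresponded to between 0.125 and 0.164 CPM (counts scaled to the library total, corrected for composition). A gene was tested where it held about 10 counts or more in at least 4 libraries, and it passed where edgeR's quasi-likelihood test over all tested genes gave a Benjamini-Hochberg adjusted p below 0.05. Of 12801 tested genes 26.0% passed, 12.6% as higher and 13.4% as lower in KO. Hdac3 itself had 63.2, 56.9, 63.9 and 62.6 CPM in KO replicates 1 to 4, against 60.3, 61.4, 64.0 and 61.7 CPM in EV replicates 1 to 4, so its transcript level does not check the group labels. The 18 epicardial and mesothelial markers summed to between 6052 and 6211 CPM in KO libraries and between 6243 and 6612 CPM in EV libraries, with Upk3b, Msln and Lrrn4 among the highest; of 17 tested, 4 rose and 7 fell. The 9 fibroblast markers, of which 1, Tcf21, is also on the epicardial list, summed to between 34866 and 36327 CPM in KO libraries and between 26364 and 28371 CPM in EV libraries, and 5 rose and 4 fell. The 12 cardiomyocyte markers summed to between 114 and 133 CPM in KO libraries and between 147 and 161 CPM in EV libraries. Of 5 tested, 0 rose, 2 fell and 3 did not pass, with a median log2 fold change of 0.53. Nppa had 0 counts throughout, whereas 11 markers held at least 1 count. The part of these marker shifts in the Cd55 and other values was not tested. Macrophages are the usual source of C1q, and of 14 macrophage and leukocyte markers 3 (Emr1, Laptm5 and Tyrobp) had 0 counts in every library and Ptprc had at most 1 count. Their sum, mostly Cd14 and Cd68, ranged from 32.7 to 38.6 CPM in KO libraries and from 31.8 to 38.7 CPM in EV libraries. Of 4 tested, 1 rose, 1 fell and 2 did not pass.

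Cd55 lies on chromosome 1 beside Cd55b, its neighbouring copy (named Daf2 in the tables), with at most 2 counts in any library. The promoters of this pair are shown because they are related in sequence whereas only Cd55 was detected well, and that of Cr1l because it belongs to the same protein family and was the membrane regulator closest to Cd55 in level in EV cells. Each runs from 250 bases before to 50 bases after the annotated start, 5′ to 3′ on the minus strand, from RefSeq on GRCm38.p6, the assembly also called mm10; 4 of the 7 genes had an entry. For Cd55 that start is 130462744, as in the deposited tables, whereas RefSeq's whole Cd55 gene model begins farther upstream, at 130465009. Capitals mark GC boxes (GGGCGG) and E-boxes (CAGCTG) on either strand.
Cd55, chr1:130462695-130462994: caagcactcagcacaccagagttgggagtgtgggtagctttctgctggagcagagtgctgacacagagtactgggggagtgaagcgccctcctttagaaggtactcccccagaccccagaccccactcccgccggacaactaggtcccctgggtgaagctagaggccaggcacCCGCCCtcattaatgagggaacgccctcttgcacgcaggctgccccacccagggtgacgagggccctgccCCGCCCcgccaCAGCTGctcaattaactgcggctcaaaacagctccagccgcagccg
Cd55b, chr1:130422994-130423293: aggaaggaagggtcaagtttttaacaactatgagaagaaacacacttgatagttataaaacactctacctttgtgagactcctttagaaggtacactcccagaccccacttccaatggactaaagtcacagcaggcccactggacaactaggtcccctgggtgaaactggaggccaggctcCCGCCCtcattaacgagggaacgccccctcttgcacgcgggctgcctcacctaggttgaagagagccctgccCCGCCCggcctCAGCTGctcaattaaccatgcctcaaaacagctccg
Cr1l, chr1:195131521-195131820: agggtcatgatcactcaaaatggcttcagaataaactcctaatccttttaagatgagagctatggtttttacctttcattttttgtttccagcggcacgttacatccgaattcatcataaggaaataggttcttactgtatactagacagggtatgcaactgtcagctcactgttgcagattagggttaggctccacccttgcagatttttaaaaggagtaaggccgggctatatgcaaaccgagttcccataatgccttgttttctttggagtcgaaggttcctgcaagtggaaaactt
In an alignment of the pair, 213 of 277 aligned bases (76.9%) were identical between Cd55 and Cd55b, and 124 of the last 150 bases printed for Cd55. The same alignment of Cd55 with Cr1l gave 143 of 274 aligned bases (52.2%), and 79 of those last 150. Cd55 and Cd55b each held 2 GC boxes and 1 E-box in the same order, and Cr1l held 0 of either. A GC box was present in 35.7% and this E-box in 16.3% of 32851 RefSeq promoters of the same length. The element AGGTCA, recognised by nuclear receptors, which can recruit Hdac3 with its corepressors, was present in 16.3% of promoters and in none of these 3. None of the motifs searched overlapped another. A match or its lack is a description of these letters and says nothing of binding.

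Cd55 was the member with the greatest difference. The gene (ENSMUSG00000026399, mm10 chromosome 1, 130439027 to 130462744, minus strand) encodes a GPI-anchored protein that speeds the decay of C3 and C5 convertases. It had 23.1, 23.4, 24.9 and 24.2 CPM in KO replicates 1 to 4, against 115, 128, 123 and 144 CPM in EV replicates 1 to 4. All KO libraries lay far below all EV libraries, and the KO libraries lay closer together than the EV libraries did. The means were 23.9 ± 0.826 CPM in KO cells and 128 ± 12.5 CPM in EV cells (SD, n = 4 each). Cd55 was thus 5.34-fold lower in KO, with a log2 fold change of KO over EV of −2.42 (standard error, SE, 0.0673). Among 12801 tested genes, 13 had a lower log2 fold change. In these bulk RNA data, fewer cells that transcribe Cd55 and less Cd55 RNA per cell cannot be told apart. Across all settings tried the log2 fold change stayed between −2.47 and −2.32. The start of Cd55 overlaps the antisense gene Gm16083 on the opposite strand, whose counts ranged from 0 to 4 per library. Whether the counting used strand is not stated, so reads of overlapping opposite genes cannot be told apart.

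The other membrane regulators of the set, Cr1l and Cd59a, showed no such difference. Susd4, a membrane regulator outside the set, did fall (log2 fold change −1.72) and is given below. Cr1l (chromosome 1, 195103789 to 195131570) encodes Crry, which in mouse combines decay acceleration with cofactor activity for factor I. It had 45.4, 43.5, 44.3 and 44.6 CPM in KO replicates 1 to 4, against 48.2, 44.2, 51.1 and 49.3 CPM in EV replicates 1 to 4. The groups overlapped, with EV replicate 2 inside the range of the KO libraries, and the log2 fold change was −0.12 (SE 0.0572). It passed the threshold when only library totals were used for scaling (−0.17) and in limma fits of the authors' FPKM values (−0.17 to −0.16). Cd59a (chromosome 2, 104095801 to 104115354), whose GPI-anchored product blocks assembly of the membrane attack complex, had 9.92, 8.91, 10.2 and 10.3 CPM in KO replicates 1 to 4. It had 8.60, 9.75, 10.7 and 9.25 CPM in EV replicates 1 to 4. The groups overlapped throughout, and the log2 fold change of 0.034 (SE 0.102) turned negative with library totals alone (−0.017), in FPKM (−0.013 to −0.012) and without EV replicate 1 (−0.018).

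Serping1 (chromosome 2, 84765387 to 84775444) encodes C1 inhibitor, the serpin that inactivates C1r, C1s and the MASP proteases. It had 55.6, 46.7, 57.3 and 55.8 CPM in KO replicates 1 to 4, against 92.4, 83.6, 92.5 and 97.7 CPM in EV replicates 1 to 4. Every KO library was below every EV library, with KO replicate 2 lowest. The means were 53.9 ± 4.81 CPM in KO cells and 91.6 ± 5.85 CPM in EV cells (SD, n = 4 each). Its log2 fold change was −0.76 (SE 0.0646) and ranged from −0.82 to −0.70 over the settings tried.

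C3 (chromosome 17, 57203970 to 57228136), the central component on which all arms converge, was the most abundant of the 7 genes. It had 420, 419, 441 and 430 CPM in KO replicates 1 to 4, against 452, 494, 487 and 506 CPM in EV replicates 1 to 4. The groups did not overlap, but the difference was small, with a log2 fold change of −0.18 (SE 0.0449). C4b (chromosome 17, 34728380 to 34743882) encodes C4, which the classical and lectin arms cleave. It held 34, 72, 91 and 88 counts in KO replicates 1 to 4 (1.80, 3.53, 3.92 and 3.66 CPM), against 37, 44, 64 and 61 counts in EV replicates 1 to 4 (2.03, 1.92, 2.96 and 2.89 CPM). KO replicate 1, the library with conflicting labels, was the lowest of all 8, the groups overlapped, and the log2 fold change was 0.41 (SE 0.225), or 0.59 and past the threshold without that library. Without KO replicates 2 and 3 it was 0.18. The near-identical gene C4a had 2 to 10 counts per library, and reads may be shared between the pair. Liver makes most circulating C3 and C4, and 34 liver markers summed to 27.3, 41.9, 42.6 and 22.6 CPM in KO replicates 1 to 4 and to between 15.8 and 20.3 CPM in EV libraries, with 6 of 12 tested members higher and 1 lower in KO, beside 12.6% higher and 13.4% lower of all tested genes. Without Alb, the liver markers summed to 20.8, 28.9, 30.8 and 17.9 CPM in KO replicates 1 to 4 and to between 14.0 and 17.8 CPM in EV libraries. Of 11 then tested, 5 were higher and 1 lower in KO. The part of the liver markers in the C4b and C3 values was not tested. Cfb, the protease of the alternative convertase (chromosome 17, 34856374 to 34862518), had 2 counts in KO replicate 3 and 0 in the other 7 libraries, which allows no fold change.

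Of the 7 genes, 6 passed the filter on low counts and 1, Cfb, did not. In the edgeR test across all genes, 3 of these 6 (Cd55, Serping1 and C3) passed as lower in KO and 0 as higher, where 13.4% of the 12801 tested genes were called lower, 12.6% higher and 26.0% in either direction. The same 3 genes had KO and EV libraries that did not overlap, as did 26.5% of all tested genes. Since this contrast helped to choose the genes, nothing is read from these counts.

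**Figure D1:**
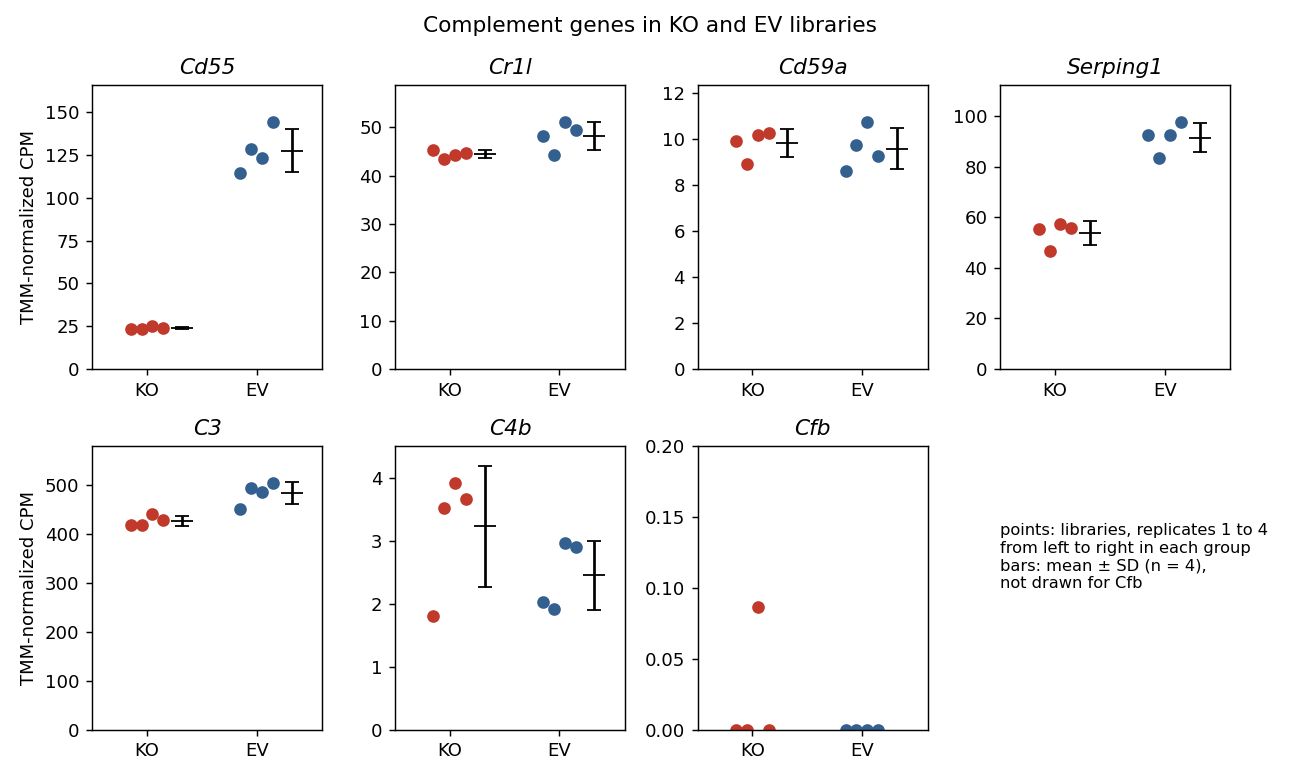
Composition-scaled CPM of the 7 genes in each library, KO left and EV right of each panel; points are libraries in replicate order and bars are mean ± SD (n = 4, not drawn for Cfb). Each vertical axis starts at 0 and has its own scale. Cd55 and Serping1 separate the groups widely (means 23.9 against 128 and 53.9 against 91.6 CPM), C3 narrowly, and Cr1l, Cd59a and C4b overlap.

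Levels can be compared between genes only per length, as in the authors' FPKM values (fragments scaled by gene length and library total). In KO cells the order was C3 (81.7 ± 1.71), Serping1 (29.9 ± 2.59), Cr1l (26.3 ± 0.429), Cd55 (7.48 ± 0.240), Cd59a (5.34 ± 0.321) and C4b (0.589 ± 0.175 FPKM, SD, n = 4). In EV cells it was C3 (96.0 ± 5.12), Serping1 (52.7 ± 3.22), Cd55 (41.5 ± 4.28), Cr1l (29.5 ± 1.63), Cd59a (5.40 ± 0.505) and C4b (0.463 ± 0.104 FPKM, SD, n = 4). Cd55 was thus below Cr1l in KO cells and above it in EV cells. Serping1 and Cr1l overlapped in range in KO cells, and in every other case neighbours in the order did not overlap. Cd55 made up 18.3, 19.3, 19.8 and 19.1% of the summed FPKM of the 3 membrane regulators in KO replicates 1 to 4, against 52.0, 56.1, 51.8 and 57.0% in EV replicates 1 to 4. The sum of the 3 was 39.1 ± 0.703 FPKM in KO cells and 76.4 ± 4.81 FPKM in EV cells (SD, n = 4 each). Of the remaining membrane regulators, Susd4 is given below, and the others added little at this depth. Cd46, which in mouse is mainly a testis protein, had 1 to 14 counts per library, Cd55b 0 to 2 and Cd59b 0 to 1. The complement receptor gene Cr2 had 0 to 3 counts.

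**Figure D2:**
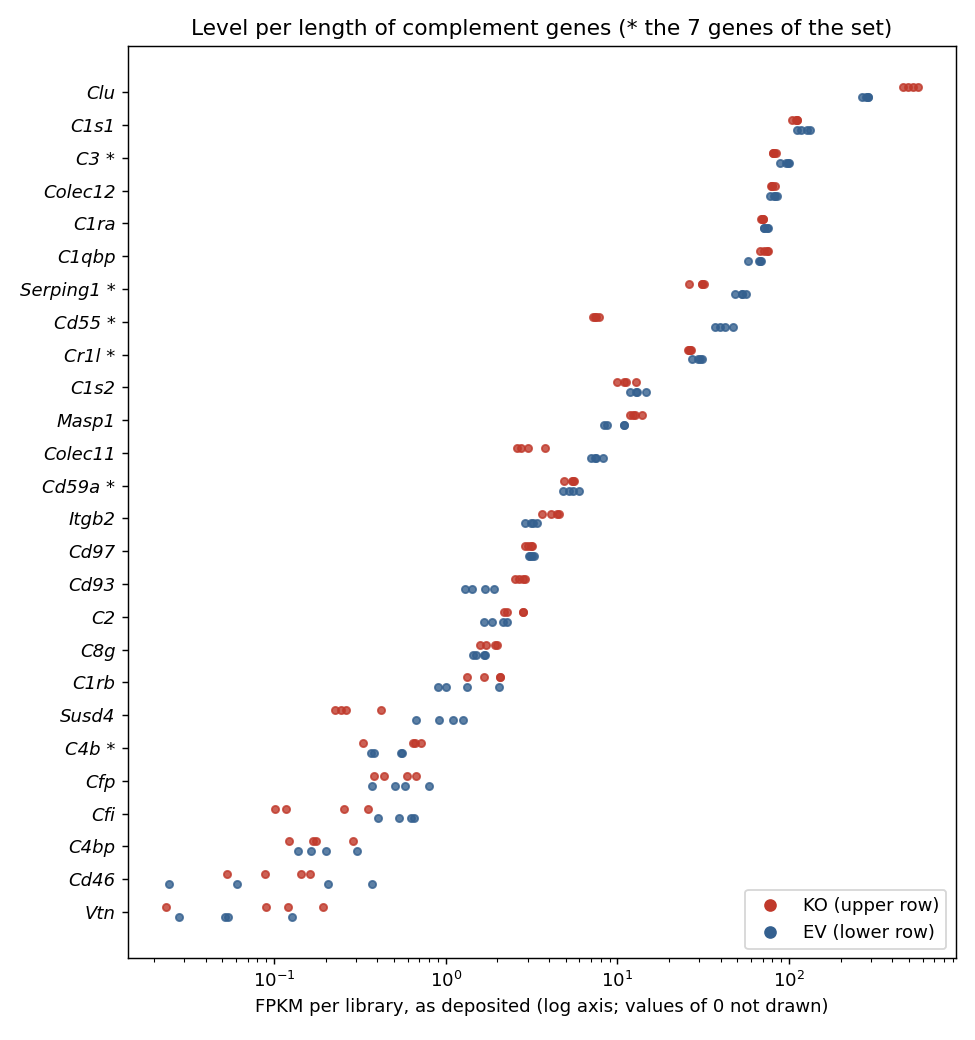
FPKM per library (log axis) of the 26 complement genes with a group mean of at least 0.1 FPKM, ordered by the higher group mean, KO in the upper and EV in the lower row of each gene; asterisks mark the 7 genes. Clu and C1s1 lead the list, and Cd55 lies near Cd59a in KO and between Serping1 and Cr1l in EV (7.48 against 41.5 FPKM).

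The rest of the pathway was taken from a list by function: 57 further table rows, with Cr2 represented by a pair of rows. Of these, 18 passed the filter, and the other 39 never exceeded 14 counts in a library. In the test across all genes 6 of the 18 were higher and 3 lower in KO (50% called, beside 26.0% of all tested genes), with a median log2 fold change of 0.015 beside 0.005 for all tested genes. Among the rises were the soluble regulator Clu and the lectin pathway protease Masp1, and among the falls the regulators Susd4 and Cfi and the lectin Colec11.

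Of 3 tested soluble regulators, 1 rose and 1 fell, beside 12.6% higher and 13.4% lower of all tested genes. Clu, whose product clusterin binds terminal complexes, had 971, 850, 1040 and 908 CPM in KO replicates 1 to 4, against 480, 508, 505 and 514 CPM in EV replicates 1 to 4. It was the most abundant complement transcript per length in both groups, and all KO libraries were above all EV libraries (log2 change 0.91, SE 0.0546, edgeR adjusted p = 4.73e-10). Cfi, the protease factor I that cleaves C3b and C4b together with cofactors, was low and fell, with 14, 11, 5 and 6 counts in KO replicates 1 to 4 against 15, 29, 29 and 23 counts in EV replicates 1 to 4 (−1.43, SE 0.366, edgeR adjusted p = 0.00697). Its call was lost without KO replicates 2 and 3 (−1.25, edgeR adjusted p = 0.0848). That fit had fewer libraries, and 1974 genes passed in it, against 3324 with all libraries. The C4b-binding protein gene C4bp did not pass (−0.046, SE 0.347).

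The only membrane regulator tested beside the 3 already given was Susd4, a transmembrane sushi-domain protein reported to inhibit complement. It had 15, 26, 16 and 18 counts in KO replicates 1 to 4, against 68, 61, 43 and 68 counts in EV replicates 1 to 4. The groups did not overlap, and the gene fell by 1.72 on the log2 scale (SE 0.259, edgeR adjusted p = 5.66e-05).

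Of 8 tested genes that start the classical and lectin arms, 2 rose and 1 fell. Among all tested genes, 12.6% were higher and 13.4% lower in KO. Colec11, a secreted collectin that carries MASP proteases, fell to 4.27 ± 0.748 CPM in KO cells, against 10.2 ± 0.768 CPM in EV cells (SD, n = 4 each; −1.24, SE 0.128, edgeR adjusted p = 5.43e-07). Masp1, a protease of the lectin arm, rose to 35.6 ± 2.55 CPM in KO cells, against 26.3 ± 3.82 CPM in EV cells (SD, n = 4 each; 0.43, SE 0.0872, edgeR adjusted p = 0.00107). C2, which encodes the protease of the classical convertase, passed at 0.40 on the log2 scale (SE 0.138, edgeR adjusted p = 0.0396) with overlapping groups. That call was lost in 11 of 17 alternatives, among them those without KO replicate 1 or 3 and without EV replicate 2, 3 or 4, and C2 overlaps Zbtb12 on the opposite strand, with 197 to 324 counts. The C1 proteases were abundant and did not pass. C1s1 stood at 109 ± 3.32 FPKM in KO cells and 122 ± 9.71 FPKM in EV cells, and C1ra at 70.2 ± 0.933 FPKM in KO cells and 73.3 ± 1.74 FPKM in EV cells (SD, n = 4 each). Their near-identical copies C1s2 and C1rb did not pass either, although C1rb did without EV replicate 1 (0.76), without a filter (0.49) and with the replicate number as a block (0.52), and reads may be split between copies. By contrast the genes of their partner C1q, C1qa, C1qb and C1qc, had at most 2 counts in any library.

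Few reads came from genes of the alternative and terminal arms. Cfd, the protease factor D, had at most 1 count, and Cfp, properdin, did not pass at 0.870 ± 0.223 CPM in KO cells and 0.906 ± 0.283 CPM in EV cells (SD, n = 4 each). Of 7 terminal components only C8g was tested and did not pass (0.25, SE 0.195); it overlaps the more abundant Fbxw5 on the opposite strand. The other 6 never exceeded 9 counts.

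Of 4 tested receptor genes, 3 rose, beside 12.6% higher and 13.4% lower of all tested genes. Cd93, once described as a C1q receptor and an endothelial and stem cell surface protein, had 18.3, 19.6, 17.4 and 19.3 CPM in KO replicates 1 to 4, against 8.55, 9.31, 11.2 and 12.5 CPM in EV replicates 1 to 4 (0.84, SE 0.106, edgeR adjusted p = 7.43e-06). Beside it, the 12 endothelial markers summed to between 33.4 and 40.0 CPM in KO libraries and between 44.7 and 48.5 CPM in EV libraries. Of 5 endothelial markers tested, 1 rose, 2 fell and 2 did not pass. Itgb2, the beta chain of complement receptors 3 and 4, rose to 12.7 ± 1.28 CPM in KO cells, against 9.23 ± 0.575 CPM in EV cells (SD, n = 4 each; 0.45, SE 0.101, edgeR adjusted p = 0.00234), a call lost without KO replicates 2 and 3 (0.34, adjusted p = 0.0761). That fit had fewer libraries, and fewer genes passed in it, as given for Cfi. The genes of the alpha chains that pair with Itgb2, Itgam and Itgax, had at most 4 and 11 counts. C1qbp, a mostly mitochondrial protein that binds C1q, rose by 0.20 on the log2 scale (SE 0.0556, edgeR adjusted p = 0.0126) and did not pass with library totals alone (0.15) or in FPKM (0.15). The anaphylatoxin receptor genes C3ar1, C5ar1 and C5ar2 had at most 2 counts.

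**Figure D3:**
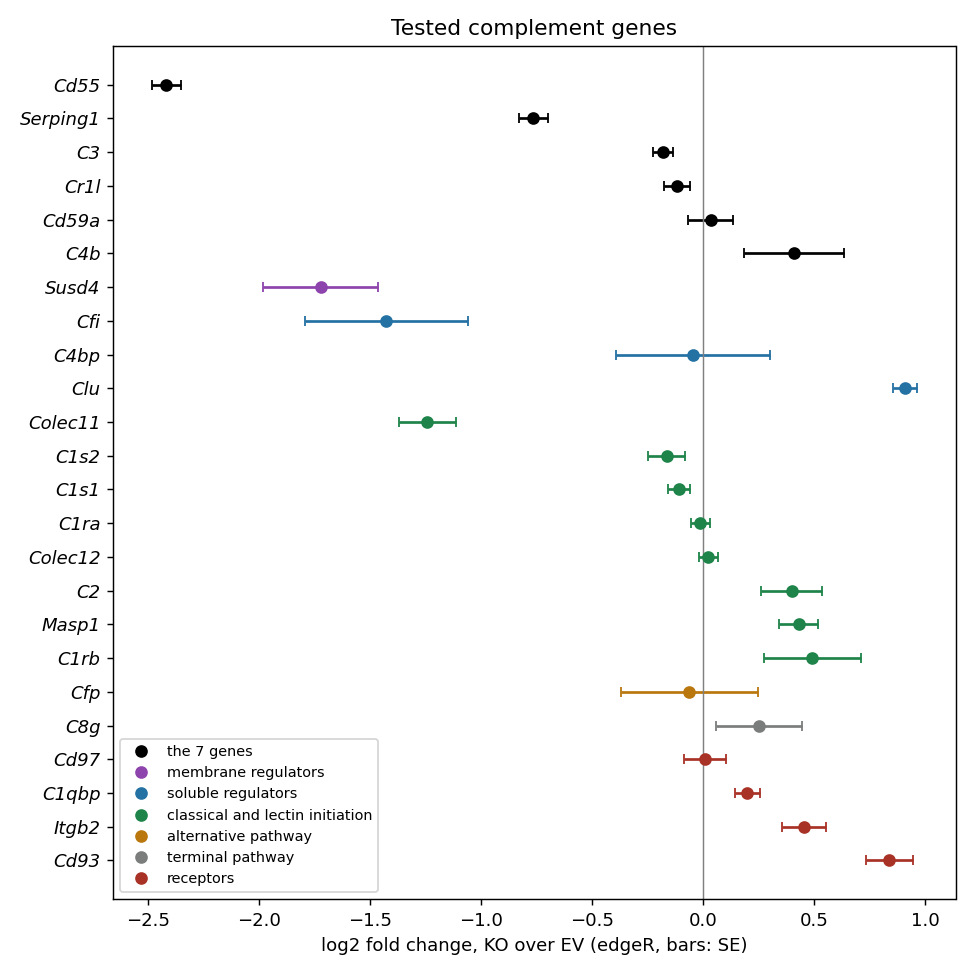
Log2 fold change of KO over EV with its SE for the 6 tested genes of the set and the 18 other tested complement genes, grouped by role. Cd55 (−2.42), Susd4 (−1.72), Cfi (−1.43) and Colec11 (−1.24) lie farthest to the left, Clu (0.91) and Cd93 (0.84) farthest to the right, and the C1 proteases C1ra, C1s1 and C1s2 between −0.16 and −0.012, with C1rb at 0.49.

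Cd55 and Cd59a products need a GPI anchor, and the genes that build and attach it were examined beside them. Of 26 tested, 1 rose (Pigs, a transamidase subunit, 0.21, SE 0.0513, edgeR adjusted p = 0.00538) and 0 fell, with a median of 0.062. Without EV replicate 4, 2 rose, and without KO replicate 3, 1 fell. Complement genes are also known targets of interferon and of NF-kB and gp130 signals. Of 15 interferon response genes tested, 5 rose and 1 fell (median 0.26), among them Bst2 (0.42), Irf9 (0.44) and Irf1 (0.26) higher, as was Ifit1 with 2.56 ± 0.315 CPM in KO cells and 1.27 ± 0.532 CPM in EV cells (SD, n = 4 each). The 1 that fell did not pass without KO replicate 3, KO replicate 4 or EV replicate 4. Of 16 NF-kB and gp130 response genes tested, 6 rose and 3 fell (median 0.12), with Serpina3n (1.95), Bcl3 (0.77) and Socs3 (0.58) higher and Icam1 (−1.16) lower. These shares stand beside 26.0% of all tested genes.

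Within 100000 bases of the start of Cd55, 1 other gene was tested. Gm15675, annotated as a noncoding RNA, lies on the same strand 1836 bases beyond the 3′ end of Cd55 in the tables (chromosome 1, 130429781 to 130437191). It had 11, 23, 22 and 16 counts in KO replicates 1 to 4, against 55, 72, 31 and 54 counts in EV replicates 1 to 4, and fell without overlap of the groups (−1.60, SE 0.285, edgeR adjusted p = 0.000327). RefSeq's Cd55 model on GRCm38.p6 runs from 130429798 to 130465009 and so takes in nearly all of Gm15675; whether these reads belong to longer Cd55 transcripts was not tested, and they are no independent measure of the locus. Gm15674, antisense to Gm15675, had 0 to 25 counts and was not tested. Within 1500 kb of the Cd55 start, 16 genes other than Cd55 were tested, of which 1 rose and 2 fell, Gm15675 included, beside 26.0% called of all tested genes, and C4bp, the next tested gene, did not pass.

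**Figure D4:**
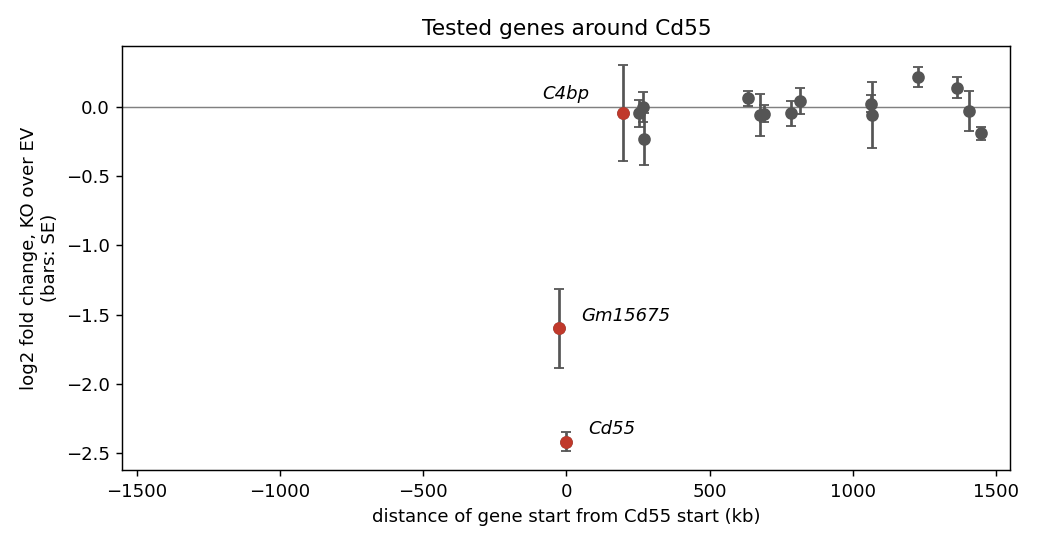
Log2 fold change of KO over EV with its SE for every tested gene that starts within 1500 kb of the start of Cd55, against the distance between the starts. Cd55 (−2.42) and the adjacent Gm15675 (−1.60) lie well below 0, while C4bp (−0.046) and the other genes drawn lie between −0.23 and 0.22; genes without enough counts are not drawn.

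The genes with the profile most like that of Cd55 over the 8 libraries were Sema6a, Flt4, Ccdc64, Nkd1 and Zdbf2, among 10208 other genes with a mean of at least 5 CPM. Likeness is the root mean square distance between log2 CPM profiles centred on their means, which was 0.20 for Sema6a, a transmembrane semaphorin, 0.21 for Flt4, the receptor for Vegfc, 0.23 for Ccdc64, 0.26 for Nkd1 and 0.26 for Zdbf2, beside a median of 1.22 for all genes compared. Sema6a averaged 2.48 ± 0.218 CPM in KO cells and 11.4 ± 1.08 CPM in EV cells (SD, n = 4 each), a level far below that of Cd55 in counts. The distance is set mainly by the size of the difference between the groups, which all 5 share with Cd55 in direction.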

How the data were processed

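RNA from 4 KO and 4 EV libraries of a mouse epicardial cell line was analysed. The authors deposited raw counts per gene and FPKM values with gene coordinates; the submitters' processing notes name mm10 and DESeq 1.6.3. For the aligner, the counter, the annotation release and strand, nothing is given in the sources used here. The deposited FPKM values equal counts scaled by the table's gene length and the column total in 100% of nonzero values (within 1e-06). No library was a duplicate: within groups, chi-square divided by its degrees of freedom was 4.01 to 13.2 for each pair.

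The test was edgeR 4.0.16 (R 4.3.3): TMM factors, filterByExpr (minimum count 10, total 15), two-sided quasi-likelihood F test, Benjamini-Hochberg over 12801 genes, threshold 0.05. SE is the log2 fold change divided by the square root of F. The test was also run on counts simulated from its own fitted means and dispersions. That checks the code and says nothing of the group labels or of batches. Alternatives were DESeq2 1.42.0, RLE factors, library totals alone, no filter, limma 3.58.1 on log2(FPKM + 1) or log2(FPKM + 0.1) with a filter (0.5 FPKM in 4 libraries) or without, a replicate block, and libraries left out. Each library was left out alone, and KO replicates 2 and 3 were also left out together. Promoters were aligned with Biopython 1.88. The 7 genes, the lists, the tests and the rule for naming genes were chosen with earlier results of these data known, and the motifs and the 1500 kb window after values were seen. The rule named the 7 genes, up to 12 other called complement genes of at least 1 CPM, near-identical relatives, up to 4 genes per list, genes within 100000 bases of Cd55 and the 5 nearest profiles; other genes named with counts or levels, such as C1qa, Cfd, Itgam and Cd46, were chosen after their values were seen. Of the complement genes, 1 is not reported here and is in no count.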

Additional observations from a re-analysis of the deposited data

Results flagged for a closer look

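Of 36 groups of 4 libraries screened (17 genes and the summed liver markers without Alb, in KO and in EV), 1 held a library far from the other 3, where chance gives about 1 in 20. Serping1 stood at 46.7 CPM in KO replicate 2, with the other KO libraries between 55.6 and 57.3 CPM. All 4 KO libraries were nevertheless below the EV libraries.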

How the results depend on the processing

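Of the 34 genes recomputed by log2 fold change, Cd55, Serping1, C3, Clu, Susd4, Colec11, Masp1 and Cd93 kept their direction and their call in all 17 alternatives; over all 34 genes, 537 of 574 values kept both. Cd59a changed sign with library totals alone (−0.017), in log2(FPKM + 1) with or without a filter (−0.012), in log2(FPKM + 0.1) (−0.013) and without EV replicate 1 (−0.018), all smaller than its SE, and ranged from −0.018 to 0.093 with 1 library left out. With 1 library left out, the 7 genes gave 0 to 1 rises (the rise being C4b) and 3 falls, the other complement genes 5 to 7 rises and 3 to 4 falls, the GPI anchor list 1 to 2 rises and 0 to 1 falls, and the interferon list 0 to 1 falls. Over all settings the other complement genes gave 4 to 7 rises and 2 to 4 falls. They had 4 rises with library totals alone, in all 3 FPKM fits and without KO replicates 2 and 3. They had 2 falls in both filtered FPKM fits and without KO replicates 2 and 3. The GPI anchor list had 0 rises in unfiltered FPKM, and 1 fall with library totals alone and in all 3 FPKM fits. The interferon list had 2 falls with library totals alone and in both filtered FPKM fits, and 0 falls without KO replicates 2 and 3. Among the other complement genes, C2 and C1qbp lost their calls with library totals alone and in all 3 FPKM fits. Without KO replicates 2 and 3, C2 and Itgb2 lost theirs. Cfi was not in the filtered FPKM fits and lost its call without KO replicates 2 and 3. In the GPI anchor list, Pigs lost its call in unfiltered FPKM, and Pigx passed as lower in the settings with 1 fall. Why calls shifted was not tested, and the fit without KO replicates 2 and 3 also had fewer libraries. Library totals alone shifted the median log2 fold change of all genes to −0.046, against 0.005 with TMM factors.

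Libraries with the same replicate number correlated weakly in their deviations (−0.033 to 0.12, above 0.1 in 1 pair of 4), and the labels give no shared source, so they were treated as unpaired. With the replicate number as a block, 3737 genes passed against 3324 without it, Cd55 stood at −2.42, and the counts were 0 and 3 for the 7 genes; 3 of 4 KO libraries correlated best with the EV library of the same number, a hint from the data and not from the design. Cfi and Gm15675 were not in the filtered FPKM fits. Transcripts such as Cfb, C1qa and Cfd lay below about 0.164 CPM (3 counts in the shallowest library). At this depth their few counts do not tell low expression from its absence.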
